A study of Mus musculus with 5 samples.

Results

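The glucocorticoid receptor gene Nr3c1, the hormone-activating enzyme gene Hsd11b1 and 8 genes that the receptor is known to induce (Fkbp5, Tsc22d3, Zbtb16, Sgk1, Cebpd, Ddit4, Errfi1 and Dusp1) were followed through RNA-Seq of sorted neonatal lung fibroblasts. These 10 genes were taken by symbol from the 23478 genes of the count table, and all 10 had counts in every library. They were picked with the genotype difference of these same libraries known, so that difference is described for them without a test, and no p-value is given for any of the 10. The receptor and the enzyme are kept apart from the targets throughout.

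There were 5 libraries of GFP+ lung cells, sorted on P6 after tamoxifen had been given on P0 and again on P1. The 2 control libraries came from mice with 1 floxed and 1 wild-type Igf1r allele, and the 3 Igf1r-deleted libraries from mice in which both alleles were floxed. All 5 carried the tamoxifen-inducible Gli1-CreERT2, the Rosa26-eGFP reporter and the tamoxifen itself, so in the controls Cre can remove 1 of the Igf1r copies, and they are not untreated wild-type cells. Cre was driven by Gli1, which in the neonatal lung marks a subset of the fibroblasts, and the GFP gate holds cells in which Cre was active together with their progeny. The mice were of mixed background and both sexes, and the number of pups per library, the litters and any hormone treatment or hormone level are not given in the sources used here. The p-values of other genes therefore set the genotype difference against the spread between these libraries only, and whether that is the spread between animals is not known.

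Glucocorticoid enters the cell as a steroid. In many tissues it arrives partly as an inert 11-keto form, which 11β-hydroxysteroid dehydrogenase type 1 (the product of Hsd11b1) reduces to the active hormone inside the endoplasmic reticulum. The receptor, the product of Nr3c1, waits in the cytoplasm with heat shock protein chaperones, moves to the nucleus when it binds hormone, and switches on genes from DNA elements made of a pair of short inverted repeats. In the lung, glucocorticoid signaling in the mesenchyme is needed for maturation before birth, and glucocorticoids given around birth change septation of the alveoli.

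Totals were 35116766 to 37597857 counts per library, TMM factors 0.961 to 1.06, and 15298 genes had enough counts to enter the fit. The levels below are CPM, counts scaled to a common library size by edgeR with TMM factors, and values of several libraries stand in the order of their numbers. Igf1r, the deleted gene, had 324 CPM in each control and 140, 177 and 194 CPM in Igf1r-deleted libraries 1, 2 and 3, so residual transcript remained in the sorted cells. Fibroblast markers were abundant in every library, with the alveolar fibroblast gene Tcf21 at 902 to 1662 CPM and Pdgfra at 480 to 684 CPM. The label gives the cells as fibroblasts. The libraries differed by sex. Transcripts of 4 Y-linked genes summed to 132 to 164 CPM in both controls and in Igf1r-deleted library 2, and to 0.312 and 0.0557 CPM in Igf1r-deleted libraries 1 and 3, in which Xist had 170 and 435 CPM. Control library 1 was the highest library for the 8 targets and Hsd11b1, and the lowest for Nr3c1. Leaving it out keeps a single control, which the fit then assumes to vary like the Igf1r-deleted libraries.

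Nr3c1 lies on chromosome 18 (mm10, 39410545 to 39519421, minus strand). CPM values for it were 387 and 449 in control libraries 1 and 2 and 441, 412 and 483 CPM in Igf1r-deleted libraries 1, 2 and 3. The ranges overlap, with the lowest value in control library 1 and the highest in Igf1r-deleted library 3. The means were 418 ± 44.1 CPM (SD, n = 2) and 445 ± 35.6 CPM (SD, n = 3), and their log2 ratio was 0.09 with a standard error of 0.12. The direction is not stable, since the log2 fold change was −0.019 without control library 1 and −0.027 with only the 3 libraries that hold Y-linked transcripts, among which library 2 is the 1 Igf1r-deleted library. With all 5 libraries the difference was smaller than its standard error.

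Hsd11b1 lies on chromosome 1 (193221634 to 193264075, minus strand). It had 331 and 238 CPM in control libraries 1 and 2 and 217, 132 and 177 CPM in Igf1r-deleted libraries 1, 2 and 3. Both controls lay above all 3 Igf1r-deleted libraries, although control library 2 exceeded Igf1r-deleted library 1 only slightly. The means of 284 ± 65.7 CPM (SD, n = 2) and 175 ± 42.6 CPM (SD, n = 3) correspond to 61.7% of the control level and a log2 fold change of −0.70 (standard error 0.22). Without control library 1 this was −0.45, and among the libraries with Y-linked transcripts −1.11.

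All 8 targets were lower in the Igf1r-deleted libraries, with mean levels from 10.3% to 70.1% of the control mean. Of all genes tested, 47.7% had a log2 fold change below 0. The targets' median log2 fold change was −1.34, whereas the median of all 15298 genes was 0.015. For 7 of the 8, and for Hsd11b1, both controls lay above every Igf1r-deleted library, which was the case for 14.9% of all genes tested. Because the genes were chosen on this contrast, these counts describe the choice and nothing is read from them. In sorted cells measured in bulk, fewer cells that express a gene and less transcript per cell cannot be told apart.

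**Figure D1:**
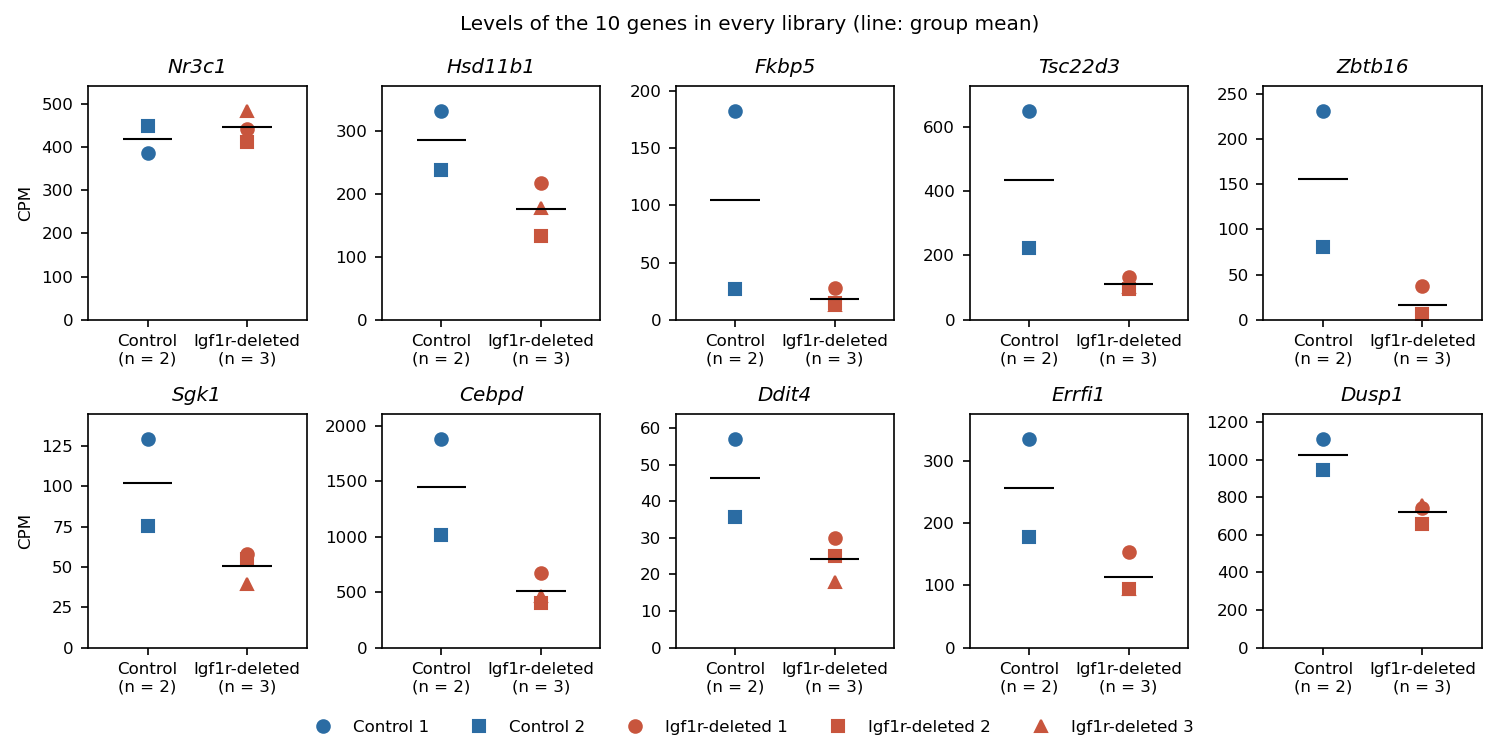
Each panel plots the CPM of 1 of the 10 genes on a linear axis from 0, with 1 point per library (2 Control in blue, 3 Igf1r-deleted in red) and a line at each group mean. Nr3c1 overlaps between the genotypes, the targets and Hsd11b1 have their highest point in Control library 1, and Fkbp5 in Control library 2 (26.9 CPM) lies at the level of Igf1r-deleted library 1 (27.5 CPM).

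The target with the largest difference was Zbtb16, which encodes the zinc finger transcription factor PLZF (chromosome 9, 48654297 to 48836222, minus strand). It had 231 and 80.7 CPM in control cells and 36.95, 6.14 and 5.04 CPM in Igf1r-deleted libraries 1, 2 and 3. The genotypes did not overlap, yet Igf1r-deleted library 1 stood well above the other two. The log2 fold change was −3.28 (standard error 0.86), −2.34 without control library 1 and −4.80 without Igf1r-deleted library 1. Its counts ran from 8013 in control library 1 to 181 in Igf1r-deleted library 3, the lowest count of any of the 10 genes, so counting error is small beside the spread between libraries.

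Fkbp5 encodes FKBP51, a co-chaperone that lowers the hormone affinity of the receptor and so closes a feedback loop (chromosome 17, 28399094 to 28517527, minus strand). Its levels were 183 and 26.9 CPM in control cells and 27.5, 14.6 and 12.9 CPM in Igf1r-deleted cells. A single library, control 1, stood 6.79-fold above the other control, and control library 2 was slightly below Igf1r-deleted library 1. The genotypes therefore overlap, and the log2 fold change of −2.51 (standard error 0.69) became −0.56 without control library 1.

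Tsc22d3 encodes GILZ, a leucine zipper protein that carries part of the anti-inflammatory action of glucocorticoid (chromosome X, 140539528 to 140600659, minus strand). It had 649 and 222 CPM in control cells and 134, 97.1 and 100.3 CPM in Igf1r-deleted libraries 1, 2 and 3. Every Igf1r-deleted library was below both controls, and the 3 of them lay close together (110 ± 20.4 CPM, SD, n = 3) where the controls did not (435 ± 302 CPM, SD, n = 2). The log2 fold change, −1.98 (standard error 0.39), was −1.01 without control library 1. Tsc22d3 is X-linked. With only the libraries that hold Y-linked transcripts, 1 of them Igf1r-deleted, the log2 fold change was −2.17, and the part of sex in the difference was not tested.

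Cebpd encodes the transcription factor C/EBPδ, an early gene of inflammation, adipogenesis and lung maturation (chromosome 16, 15887286 to 15891031, plus strand). Its levels were 1881 and 1012 CPM in the controls against 675, 398 and 461 CPM in Igf1r-deleted cells. There was no overlap, the log2 fold change was −1.50 (standard error 0.30), and it was −0.99 without control library 1. Some 15.0% of its exon bases overlap Spidr on the opposite strand, and since the use of strand in counting is not given, reads of the pair cannot be told apart there. The exons of the other members overlapped no annotated gene, except for 0.332% of Dusp1.

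Errfi1 encodes MIG6, an inhibitor of the EGF receptor family (chromosome 4, 150853919 to 150868892, plus strand). It had 335 and 178 CPM in control cells and 153, 94.6 and 93.65 CPM in Igf1r-deleted cells. Igf1r-deleted library 1 was close to control library 2 without reaching it. The log2 fold change of −1.17 (standard error 0.30) was −0.65 without control library 1.

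Sgk1 encodes a serum- and glucocorticoid-induced kinase of the AKT family, activated downstream of PI3K (chromosome 10, 21882184 to 21999903, plus strand). Its levels were 129 and 75.1 CPM in control cells and 57.7, 54.85 and 39.4 CPM in Igf1r-deleted cells, a log2 fold change of −1.01 (standard error 0.25). Ddit4 encodes REDD1, an inhibitor of mTORC1 (chromosome 10, 59949669 to 59951834, minus strand). It had 57.1 and 35.8 CPM against 29.8, 25.1 and 17.98 CPM, a log2 fold change of −0.93 (standard error 0.25). For both genes the genotypes were separate, the controls spread more widely than the Igf1r-deleted libraries, and the log2 fold change without control library 1 was near −0.6, at −0.57 for Sgk1 and −0.56 for Ddit4.

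Dusp1 encodes a phosphatase that shuts off MAP kinases (chromosome 17, 26505590 to 26562128, minus strand). With 1111 and 944 CPM in control cells and 744, 659 and 758 CPM in Igf1r-deleted cells it showed the smallest difference of the targets (log2 fold change −0.51, standard error 0.13). It also had the narrowest range of the 8 targets when each library was left out in turn, with log2 fold changes between −0.64 and −0.40. Of all genes tested, 10.1% had a log2 fold change at or below that of Dusp1.

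Set beside each other per kilobase of exon (RPKM), Cebpd and Dusp1 were the most abundant targets and Fkbp5 the least. Their control means were 386 and 310 RPKM for Cebpd and Dusp1, and 11.1 RPKM for Fkbp5. Receptor and enzyme lay between, with control means of 54.4 RPKM for Nr3c1 and 66.9 RPKM for Hsd11b1. In the means of the Igf1r-deleted libraries Dusp1 (217 RPKM) stood above Cebpd (136 RPKM), and Nr3c1 (57.9 RPKM) above Hsd11b1 (41.3 RPKM). Zbtb16 and Fkbp5 were the least abundant there, at 3.04 and 1.94 RPKM. The order within both pairs differed between the 2 controls. In control library 1 Cebpd (502 RPKM) was above Dusp1 (336 RPKM), and Hsd11b1 (77.8 RPKM) above Nr3c1 (50.3 RPKM). In control library 2 Dusp1 (285 RPKM) was above Cebpd (270 RPKM), and Nr3c1 (58.5 RPKM) above Hsd11b1 (56.0 RPKM). That is the order of the Igf1r-deleted means, so the order of the control means came from control library 1.

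The levels of the targets varied within each genotype as well as between them. Control library 1 was the highest of the 5 for all 8 targets and for Hsd11b1, as it was for 26.4% of all genes tested. The median target was higher in control library 1 than in control library 2 by 0.90 on the log2 scale, a difference of the same order as that between control library 2 and the mean of the Igf1r-deleted libraries (0.66). For all genes tested, the first of these medians was 0.0017. Without control library 1 all 8 targets were still lower in the Igf1r-deleted libraries, and the median of their log2 fold changes was −0.61, and without control library 2 the median was −1.73. For 6 targets (Tsc22d3, Zbtb16, Sgk1, Cebpd, Ddit4 and Errfi1) and for Hsd11b1 the libraries followed the order control 1, control 2, Igf1r-deleted 1, and then Igf1r-deleted 2 and 3, which held for 6.39% of all genes tested. That order requires both controls above every Igf1r-deleted library, and the genes were chosen on this contrast. Among the 2287 genes tested with that separation, 977 had this order, and 1689 had control library 1 as the highest library. Nothing about the members is read from these shares and counts.

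**Figure D2:**
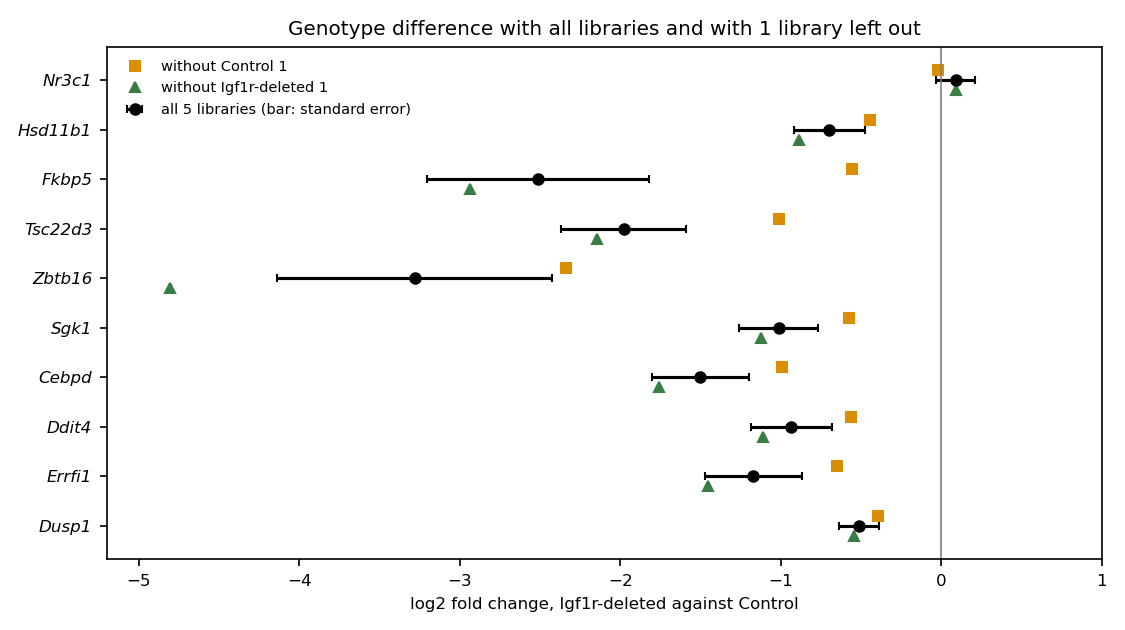
The horizontal axis is the log2 fold change of Igf1r-deleted against Control libraries for each of the 10 genes, with circles and standard error bars for all 5 libraries, squares without Control library 1 and triangles without Igf1r-deleted library 1. Without Control library 1 the difference of Fkbp5 goes from −2.51 to −0.56, and without Igf1r-deleted library 1 that of Zbtb16 goes from −3.28 to −4.80.

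The promoter letters of the members were read from RefSeq windows of 300 bases (GRCm38.p6, 250 before to 50 after each annotated start). Of the 10 genes 7 had a window, 15 windows in all, and windows of Nr3c1, Zbtb16 and Cebpd were not used here. Both strands were searched for AGAACA, one repeat of the element, for the full glucocorticoid response element made of AGAACA, 3 bases of any kind and TGTTCT, the cyclic AMP element TGACGTCA (CRE), the AP-1 site TGACTCA, the E-box CACGTG and the FOXO site GTAAACA. The full element was present in 3 of 32851 windows of all genes (0.00913%), and 1 of these belongs to Sgk1, at 189 to 175 bases before the start. Single AGAACA repeats, found in 19% of all windows, were present for Sgk1 and Tsc22d3, and a pair of those of Sgk1 lie inside the full element. CREs, found in 1.79% of all windows, were present for Dusp1 and Errfi1. E-boxes (7.15% of all windows) were present for Dusp1, Fkbp5 and Sgk1, FOXO letters (3.65%) for Hsd11b1, and AP-1 letters (5.2%) in no window of the members. The window of Ddit4 held none of the 6. These shares are per window, whereas the 7 genes hold 15 windows, so a gene with several windows has more room for a match. A list of further glucocorticoid-induced genes, described below, had 31 genes with a window. Of these 3 held a single repeat, 7 an E-box, 3 FOXO letters, 1 AP-1 letters, and 0 the full element or a CRE.

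**Figure D3:**
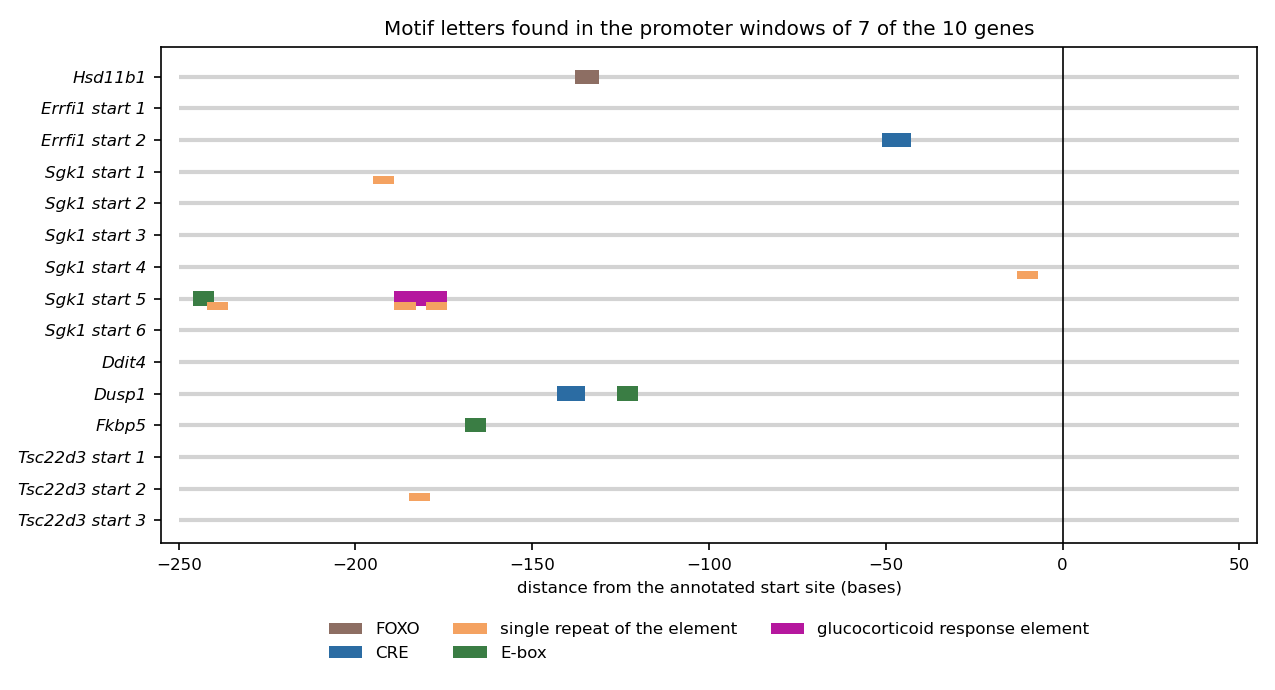
Each horizontal line is 1 promoter window, from 250 bases before to 50 bases after an annotated start (vertical line at 0), for the 7 genes with a window, and boxes mark where motif letters were found on either strand. The full glucocorticoid response element appears in 1 of the 6 windows of Sgk1, and CREs in Dusp1 and in 1 of the 2 windows of Errfi1.

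The exon-free stretches that hold some of these matches are given 5′ to 3′ on the strand of the gene. Other matches in them, such as the E-boxes of Sgk1 and Dusp1, are left in lower case. Capitals mark the full element of Sgk1 (chr10:21993640-21993889, plus strand), the CREs of Errfi1 (chr4:150854950-150855069, plus strand) and Dusp1 (chr17:26508520-26508722, minus strand) and the single repeat of Tsc22d3 (chrX:140600660-140600772, minus strand), which reads TGTTCT on this strand.
Sgk1: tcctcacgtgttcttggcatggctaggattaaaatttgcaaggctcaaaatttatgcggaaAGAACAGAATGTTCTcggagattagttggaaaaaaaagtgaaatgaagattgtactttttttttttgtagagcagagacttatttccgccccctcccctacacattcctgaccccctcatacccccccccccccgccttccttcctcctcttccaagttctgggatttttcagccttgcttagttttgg
Errfi1: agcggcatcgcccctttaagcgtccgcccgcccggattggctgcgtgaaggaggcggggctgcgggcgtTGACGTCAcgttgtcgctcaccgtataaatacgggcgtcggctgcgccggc
Dusp1: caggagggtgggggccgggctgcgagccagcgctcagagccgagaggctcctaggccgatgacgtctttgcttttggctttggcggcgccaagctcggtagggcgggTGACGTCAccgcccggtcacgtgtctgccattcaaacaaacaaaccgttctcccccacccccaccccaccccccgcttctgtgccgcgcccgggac
Tsc22d3: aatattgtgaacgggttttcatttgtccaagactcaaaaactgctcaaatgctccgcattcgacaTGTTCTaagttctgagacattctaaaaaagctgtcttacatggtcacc
A match is a description of letters, and counts were summed per gene, so they do not say which start of Sgk1, Errfi1 or Tsc22d3 was in use. Sgk1, with the full element, had a log2 fold change of −1.01, and the CRE-bearing Errfi1 and Dusp1 had −1.17 and −0.51. Fkbp5, with neither in its window, had −2.51. Only letters close to annotated starts were searched, and none for Zbtb16 and Cebpd. A missing match therefore does not show that a gene lacks the element elsewhere. Whether the letters go with the size of the difference was not tested.

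Of the other steroid hormone receptor genes, 3 were read and all 3 were scarce. The mineralocorticoid receptor gene Nr3c2, whose product binds the same hormone, had 1.45 to 4.75 CPM, the estrogen receptor gene Esr1 2.004 to 3.11 CPM and the progesterone receptor gene Pgr 0.578 to 1.31 CPM. Per kilobase of exon, Nr3c1 was at 54.4 RPKM in the controls and Nr3c2 at 0.569 RPKM. The genotypes overlapped for each. At the level of the test, 0 of the 3 had an unadjusted p under 0.05 (adjusted p 0.760 to 0.813, edgeR quasi-likelihood test, Benjamini-Hochberg), and DESeq2 called 0 of them, with no adjusted p given for Pgr and Esr1.

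Among 12 genes of hormone supply and removal, 7 had enough counts to be tested. The product of H6pd makes the NADPH that drives the Hsd11b1 reaction, and it had 1572 and 1247 CPM in control cells and 1148, 924 and 954 CPM in Igf1r-deleted cells. Like Hsd11b1 it was lower without overlap, with a log2 fold change of −0.48 (standard error 0.16, unadjusted p = 0.016, adjusted p = 0.354, edgeR quasi-likelihood test, Benjamini-Hochberg), and −0.31 without control library 1. Hsd11b2, whose product inactivates the hormone, had 20.3 and 31.7 CPM in control cells and 25.1 to 31.1 CPM in Igf1r-deleted cells, with overlap. Abcb1b, an efflux transporter gene, was low and lower in the Igf1r-deleted libraries (3.23 and 1.26 CPM against 1.25, 0.704 and 0.612 CPM), a log2 fold change of −1.39, or −0.56 when control library 1 was left out. H6pd and Abcb1b were the 2 of the 7 with an unadjusted p under 0.05, where 6.75% of all genes tested were lower at that threshold, and 0 of the 7 passed after adjustment in edgeR or in DESeq2, which gave no adjusted p for Abcb1b and Cyp11a1. Its paralog Abcb1a (2.98 to 5.93 CPM), the 5α-reductase gene Srd5a1 (5.32 to 8.22 CPM), and the steroid synthesis genes Star (5.59 to 7.09 CPM) and Cyp11a1 (0.139 to 0.749 CPM) overlapped. The steroid synthesis genes Cyp11b1, Hsd3b1 and Hsd3b6 were at 0 counts in every library, where a count of 0 allows up to 3, and Cyp21a1 and the hormone-binding globulin gene Serpina6 had at most 2 counts in any library.

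Chaperones and coregulators of the receptor had median log2 fold changes near 0. Of 15 chaperone genes 1 was lower and 3 were higher at an unadjusted p under 0.05 by edgeR's quasi-likelihood test, where 6.75% of all genes tested were lower and 5.65% higher, and the median of their log2 fold changes was −0.041. For 5 of the chaperones and 6 of the coregulators every Igf1r-deleted library exceeded both controls, which held for 16% of all genes. Hsp90aa1, the inducible HSP90, was the lower one (132 ± 4.45 CPM, SD, n = 2, against 102 ± 15.9 CPM, SD, n = 3). Stip1, which hands the receptor from HSP70 to HSP90, averaged 43.7 ± 5.32 CPM in control cells (SD, n = 2) and 53.8 ± 4.64 CPM in Igf1r-deleted cells (SD, n = 3), and its log2 fold change fell from 0.30 to 0.17 without control library 1. Ppid, a co-chaperone that competes with FKBP51, had 7.05 ± 0.603 CPM (SD, n = 2) against 9.70 ± 0.259 CPM (SD, n = 3). Tomm34 was also higher, at a log2 fold change of 0.36. Of 15 coregulators 1 was lower, Nrip1, a corepressor of nuclear receptors (log2 fold change −0.42, standard error 0.10), and 1 was higher, the arginine methyltransferase gene Carm1 (0.38, standard error 0.12, with 21.1% of its exon bases shared with Yipf2). In both lists 0 genes had an adjusted p under 0.05 in edgeR, and DESeq2's Wald test called 1, Nrip1.

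A list of 38 further genes known to be induced by glucocorticoid in various tissues was read in the same way, 37 of them tested (Mfsd2a had too few counts). Of these 33 were lower and 4 higher in the Igf1r-deleted libraries, and the median of the 37 log2 fold changes was −0.72. At an unadjusted p under 0.05, 25 were lower (67.6%) and 0 were higher, where 6.75% of all genes tested were lower and 5.65% higher at that threshold. At an adjusted p under 0.05, edgeR's quasi-likelihood test called 0 of the 37, as it called 0 of all genes (0%), and DESeq2's Wald test called 8, all lower, where it called 0.941% of all genes as lower and 0.366% as higher. For 22 the Igf1r-deleted libraries all lay below both controls (14.9% of all genes tested) and for 1, Maoa, all above (16%). The list was written from general knowledge with earlier results of these libraries known, and Irs2, Pik3r1 and Foxo3 in it are genes the study itself had picked on them. Leaving these 3 out, 22 of 34 were lower at an unadjusted p under 0.05, with a median of −0.67.

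The 6 largest differences without overlap in that list were those of Hif3a, Mt1, Mt2, Pdk4, Xdh and Klf15. Hif3a, a hypoxia-inducible factor subunit that restrains the others, had 104 and 31.4 CPM in control cells and 25.5, 8.10 and 6.46 CPM in Igf1r-deleted cells, a log2 fold change of −2.34 (standard error 0.66). The metallothionein genes Mt1 and Mt2, which encode metal-binding proteins, had log2 fold changes of −2.13 and −2.04 (standard errors 0.55 and 0.58), although 73.5% of the exon bases of Mt2 are shared with Gm45774 on the opposite strand. Without control library 1, Hif3a had −1.24, Mt1 −1.21 and Mt2 −0.97. Pdk4 encodes the kinase that blocks entry of pyruvate into the citric acid cycle, and its levels were 111 and 42.9 CPM against 23.8, 17.5 and 20.6 CPM (−1.90, standard error 0.35). Xdh, the xanthine oxidoreductase gene, had 201 and 49.2 CPM against 47.2, 26.6 and 30.2 CPM (−1.85, standard error 0.52). Klf15, a transcription factor of amino acid and glucose metabolism, differed by −1.49 (standard error 0.41). Each of the 6 had an adjusted p of 0.354 (edgeR quasi-likelihood test, Benjamini-Hochberg). DESeq2's Wald test gave an adjusted p of 3.56e-05 for Pdk4 and of 0.155 to 0.195 for the rest of the 6. In all 6 control library 1 was the highest library and Igf1r-deleted library 1 the highest of its genotype.

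Control library 1 was the highest library for 30 of the 37 genes, and the median gene was higher in it than in control library 2 by 0.68 on the log2 scale. Without it 30 of 37 were still lower, and the median of the log2 fold changes was −0.32. The number lower at an unadjusted p under 0.05 in edgeR then went from 25 to 8, while over all genes it went from 1032 to 248. Xdh then had −0.51, Klf15 −0.45 and Pdk4 −1.07. Without control library 2 the median was −1.01. With only the libraries that hold Y-linked transcripts it was −0.81, which rests on 1 Igf1r-deleted library.

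**Figure D4:**
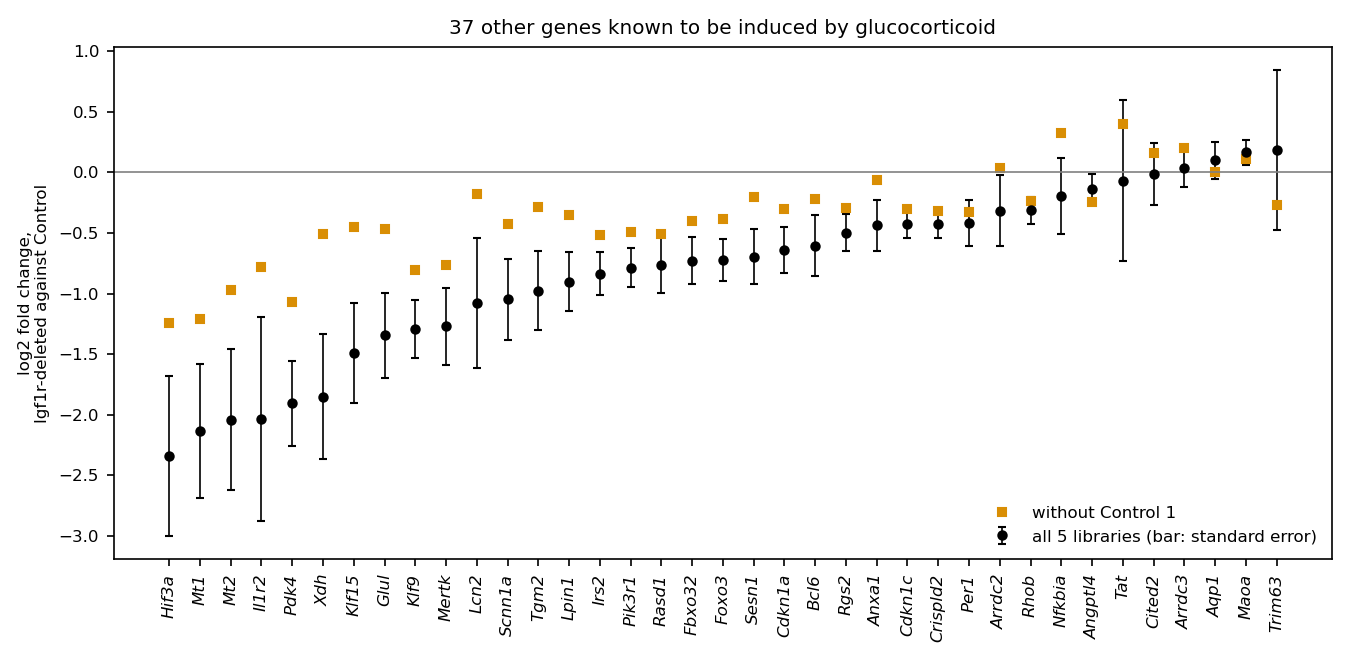
The log2 fold change of Igf1r-deleted against Control libraries (vertical axis) is plotted for the 37 other induced genes in rising order, with circles and standard error bars for all 5 libraries and squares without Control library 1. With all libraries 33 of 37 lie below 0 and the median is −0.72, and without Control library 1 it is −0.32.

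Of 20 genes that glucocorticoid is known to repress, mostly cytokines, chemokines and proteases, 19 were tested. At an unadjusted p under 0.05 by edgeR's quasi-likelihood test 0 were lower and 1 was higher, Lif, which encodes a cytokine of the interleukin 6 family (7.72 and 9.44 CPM in control cells against 16.8, 10.8 and 14.5 CPM in Igf1r-deleted cells), with a log2 fold change of 0.71 and of 0.57 without control library 1. By the Wald test of DESeq2 0 of the 19 were called. The median log2 fold change was −0.31 and turned to 0.36 without control library 1, so the list had no stable direction. These genes were highest in control library 1 and Igf1r-deleted library 1, as the plot of medians by library shows.

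Other programs were read for how they ran beside the targets. Of 27 immediate early and dissociation response genes, which are induced within minutes of stress or growth factor and also while tissue is digested for sorting, 27 were lower in the Igf1r-deleted libraries, 16 of them at an unadjusted p under 0.05 (median log2 fold change −0.45), as were 6.75% of all genes tested. Without control library 1, 24 were lower, with a median of −0.29, and 7 of them stood among the 248 genes lower at that threshold. The summed level of the list was 32579 and 27713 CPM in control cells and 20169 to 23540 CPM in Igf1r-deleted cells, without overlap. The genes with the largest differences were Hspa1a (985 and 1122 CPM against 521, 119 and 114 CPM) and its near-identical neighbor Hspa1b, whose reads cannot be assigned with certainty, followed by Nr4a3, Dnajb1, Myc and Egr3 (−1.01 to −0.87 on the log2 scale). Myc had −0.50 without control library 1. For the heat shock genes control library 2 was as high as control library 1 or higher, unlike the targets. With adjusted p under 0.05 as the threshold, 0 of the 27 passed edgeR's quasi-likelihood test and 7 passed the Wald test of DESeq2, all lower, where 0.941% of all genes did. Dusp1, Cebpd, Errfi1 and Sgk1 also respond to such stimuli, and the part of these in the target levels was not tested.

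The circadian clock and hypoxia lists had medians closer to 0. Of 15 clock genes 3 were lower at an unadjusted p under 0.05 by edgeR's quasi-likelihood test and 0 were higher, where 6.75% of all genes tested were lower, and the median of the 15 was −0.030 on the log2 scale. The 2 of them without overlap were Per2, a clock repressor that the receptor can induce (61.9 and 46.3 CPM against 28.9, 31.3 and 35.6 CPM), and Bhlhe40 (163 and 125 CPM against 108, 82.2 and 82.3 CPM). Of 15 hypoxia-induced genes 1 was lower at that threshold, Bnip3, which had −0.84 on the log2 scale (standard error 0.28) and −0.25 without control library 1, and which shares 22.3% of its exon bases with Gm45507, and the median was −0.20. At an adjusted p under 0.05, 2 clock genes and 0 hypoxia genes were called by the Wald test of DESeq2, and 0 of either list by edgeR.

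**Figure D5:**
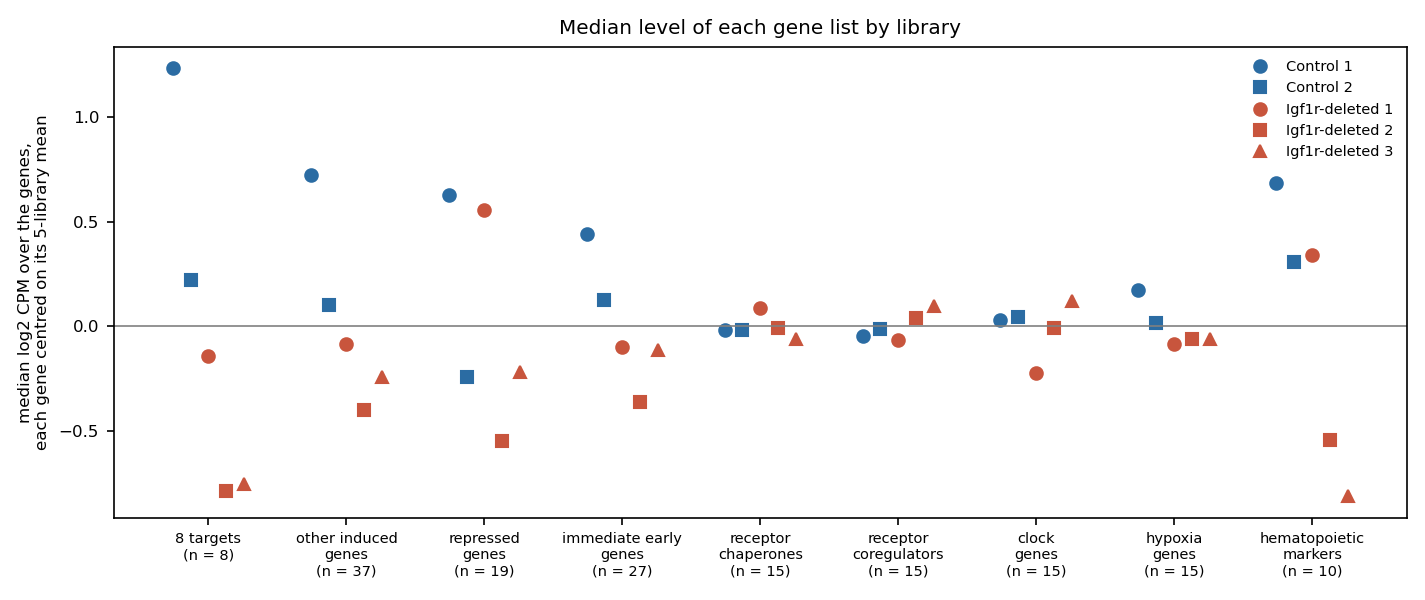
For each gene list the points give the median log2 CPM of its tested genes in each of the 5 libraries, after every gene was centred on its mean over the libraries. The targets range from 1.23 in Control library 1 to −0.79 in Igf1r-deleted library 2, the repressed genes are highest in Control library 1 and Igf1r-deleted library 1 (0.63 and 0.56), and chaperones and coregulators stay near 0.

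Markers of other cell types were present at modest levels in all libraries. All 10 hematopoietic markers had lower means in the Igf1r-deleted libraries, 3 of them at an unadjusted p under 0.05 by edgeR's quasi-likelihood test, where 6.75% of all genes tested were lower, and their summed level was 450 to 664 CPM in control cells and 224 to 527 CPM in Igf1r-deleted cells, with overlap. Without control library 1, 8 of the 10 were lower, 1 of them at that threshold. Summed epithelial markers were at 1034 to 1111 CPM and 504 to 1115 CPM, and endothelial markers at 713 to 732 CPM and 451 to 1000 CPM. No marker of any cell type list was at 0 in any library. Means of 9 of the 14 myofibroblast markers lay above those of the controls, 5 of them at an unadjusted p under 0.05 (5.65% of all genes tested) and without overlap, namely Acta2, Myl9, Tagln, Actg2 and Wnt5a. The 2 lower at that threshold were Enpp2 and Hhip. Of the exon bases of Tagln, 67.9% are shared with Pcsk7 and Gm48529 on the opposite strand. The median of the 14 log2 fold changes was 0.24, and 0.077 without control library 1. Acta2, the smooth muscle actin gene, had 407 and 655 CPM in control cells and 764, 1067 and 907 CPM in Igf1r-deleted cells. The difference was 0.78 on the log2 scale with all libraries (standard error 0.23, adjusted p = 0.354, edgeR quasi-likelihood test, Benjamini-Hochberg) and 0.47 without control library 1. DESeq2's Wald test gave it an adjusted p of 0.0465. The summed level of these markers, 16271 to 22131 CPM in control cells and 15186 to 17708 CPM in Igf1r-deleted cells, is mostly that of the elastin gene Eln (17351 and 11104 CPM against 12501, 9150 and 10370 CPM). Of the remaining cell type lists 0 to 2 markers each were lower and 0 were higher at that threshold. Lipofibroblast and matrix fibroblast markers summed to 16672 to 17534 CPM and 14921 to 16712 CPM, pericyte markers at 1152 to 1480 CPM and 1281 to 1405 CPM, and mesothelial markers at 444 to 450 CPM and 341 to 454 CPM. The part of the makeup of the sorted cells in the target levels was not tested.

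Genes whose profiles over the 5 libraries were most like those of the members were ranked by the root mean square difference of centred log2 CPM among about 9100 genes with a mean of at least 10 CPM. Closest to Nr3c1 were Cmtm4, Dnajc25, Slc22a5, Zbtb17 and Ppfia4, which differed from it by 0.018 to 0.025. Closest to Hsd11b1 were Rasd1, which is also in the list of induced genes, Tiparp, the lysyl oxidase gene Lox, Slc2a12 and Arid5a (0.034 to 0.078). The values of Lox, for example, were 1898 and 1295 CPM in control cells and 1283, 797 and 1024 CPM in Igf1r-deleted cells. Closest to the mean profile of the 8 targets were the flavin monooxygenase gene Fmo2, Fam13a, Mertk (in the list of induced genes), Apbb2 and Scara5 (0.16 to 0.23). Fmo2 was abundant, with 3528 and 1411 CPM in control cells and 1193, 520 and 597 CPM in Igf1r-deleted cells, and here too control library 1 stood far above the others. With 5 libraries many genes share an order, so likeness is given as a description only.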

How the data were processed

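RNA was measured in 5 libraries of GFP+ cells sorted from P6 mouse lungs (2 Control, 3 Igf1r-deleted), grouped by the genotype in the labels. The authors used a NEBNext Ultra kit, sequenced paired ends, trimmed with Trim Galore, aligned to mm10 with Bowtie2 and deposited raw counts per gene symbol, counted with GenomicAlignments. Tool versions, annotation and use of strand are not given in the sources used here.

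Counts were fitted with edgeR 4.0.16 (limma 3.58.1, R 4.3.3): TMM, filterByExpr, genotype as the only term, a two-sided quasi-likelihood test and Benjamini-Hochberg adjustment over 15298 genes. The script was tested on simulated counts. Log2 CPM used a prior count of 2. Positions, exon lengths and overlaps came from GENCODE M21 (mm10), and promoters from RefSeq (GRCm38.p6). Totals per library were 35116766 to 37597857 counts, and counting error is small beside the spread between libraries. Control pairs differed by 50.7 and Igf1r-deleted pairs by 23.2 to 47.7 times counting noise, so none is a repeat deposit.

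The members and gene lists were chosen with earlier results of these data known. Genes of other pathway lists were named where the unadjusted p was under 0.05 without overlap of the genotypes, at most the 6 largest per list, with every gene of the steroid receptor and hormone metabolism lists and the defining markers of cell type lists, except that the values of 1 gene are not reported here. Names beyond this rule (Foxo3, Irs2, Pik3r1, Mfsd2a, Maoa and myofibroblast markers) were given after their values were seen. Alternatives were DESeq2 1.42.0, limma voom, robust empirical Bayes, 3 other normalizations, 2 other filters, a replicate block, each library left out and, chosen after seeing the data, only the libraries with Y-linked transcripts.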

Additional observations from a re-analysis of the deposited data

How the results depend on the processing

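The targets' direction held under every alternative run, with 8 of 8 lower. The targets were chosen on this contrast and every alternative reuses these libraries, so nothing is read from that count. The median log2 fold change of the targets was −1.35 to −1.22 over the 9 alternatives of the processing. It was −1.73 to −0.61 with 1 library left out, −0.61 being the value without control library 1. Nr3c1 changed sign, to −0.019 without control library 1 (range −0.019 to 0.19 with 1 library left out) and to −0.027 with only the libraries that hold Y-linked transcripts, where Hsd11b1 had −1.11. Over all genes, edgeR's adjusted p was under 0.05 for 0 genes (1897 unadjusted), against 200 with DESeq2's Wald test, 136 with the replicate block, 10 with the Y-linked libraries alone (1 Igf1r-deleted) and 0 to 45 with 1 library left out (433 to 3183 unadjusted). For the other induced genes these adjusted counts were 0, 8 with DESeq2, 9 with the replicate block and 0 to 10 with 1 library left out. Their unadjusted count of 25 became 8 without control library 1 (8 to 27 over the libraries left out), and their median −1.01 to −0.32. The replicate numbers are not stated to mark litters or days. In the replicate block Igf1r-deleted library 3 has no control of its number and adds nothing to the genotype difference. That difference then rests on numbers 1 and 2, and little is left to estimate the spread. Deviations of control and Igf1r-deleted libraries of the same number correlated at 0.21 for number 1 and 0.12 for number 2 over genes, and only 2 pairs exist. With 2 controls their deviations mirror each other, and control library 2 correlated at 0.12 with Igf1r-deleted library 3 as well. These correlations therefore cannot show whether equal numbers mark a pair. The block changed no direction among the 10 genes. DESeq2 gave no adjusted p for 3563 genes. With 2 libraries against 3, the smallest exact permutation p is 0.1.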
